A study of Mus musculus with 20 samples.

Results

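CC chemokines are small secreted proteins whose first conserved cysteines lie side by side, and they draw leukocytes into tissue through G protein-coupled receptors. Ccl2, Ccl7 and Ccl8 belong to the monocyte chemoattractant proteins, Ccl3, Ccl4 and Ccl5 attract macrophages and lymphocytes, Ccl6 and Ccl9 are ligands of Ccr1, Ccl11 (eotaxin) of Ccr3 and Ccl22 of Ccr4. In obesity the family is best known for bringing monocytes, which become macrophages, into white adipose tissue (WAT) and liver.

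These 10 inflammatory CC ligands, of 16358 genes with a current symbol on the array, were read by 12 of the 41174 probes, other than controls, on Agilent mouse 44k arrays. A probe was taken when its gene name in the scanner files, or the current symbol of its accession, was that of a ligand. Ccl5 and Ccl7 had a pair of probes each and the other ligands had 1. All mice were males of the C57BL/6 strain, 7 months old, and for 21 weeks their chow had been high in fat (HFD, with a fat content of 35%). They were either wild type, WT(HFD), or CD44KO(HFD), which lack the hyaluronan receptor CD44 in every cell from birth and had been backcrossed onto C57BL/6J. Total RNA of liver and of WAT, labelled with Cy3, was read with 5 arrays per genotype and tissue, 20 in all, and no mice on another diet were analysed here. The labels number the samples but do not say that the tissues came from the same mice.

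Each value below is the log2 of the processed spot signal minus the 75th percentile of its array, so that 0 is a bright probe and each step of 1 is a doubling. Testing required that the scanner software placed a probe well above background in 3 or more of the 5 mice of a genotype. The test was limma with Benjamini-Hochberg adjustment over all probes tested in the tissue, and an adjusted p under 0.05 is called a change. An exact permutation p, two-sided, is given beside it and cannot go below 0.0079 with 5 mice against 5.

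The probes were spread over 2 stretches of chromosome 11 in build mm7, with Ccl2, Ccl7, Ccl11 and Ccl8 in the first and Ccl5, Ccl9, Ccl6, Ccl3 and Ccl4 in the other. Ccl22 lay on chromosome 8. The first 30 of the 60 bases of the probes on which the results turn are shown, 5′ to 3′, as the scanner files give them, because the paired probes of Ccl5 behaved alike and those of Ccl7 did not.
Ccl2: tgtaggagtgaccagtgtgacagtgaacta
Ccl7 upstream: gcatggaagtctgcgctgaagcccatcaga
Ccl7 downstream: ttctgagaactgttgatgaaatgtgttgat
Ccl4: tattatttatgttttagttataggacgcgt
Ccl5 upstream: atcaactatttggagatgagctaggataga
Ccl5 downstream: tctcagctgctccgaggctctgcacagcaa

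The Ccl2 probe lay at chr11:82118723-82118782, on the plus strand. The Ccl7 probes, also on the plus strand, lay at chr11:82128577-82128636 and chr11:82128729-82128788, with starts 152 bases apart. The upstream one could be read without a stop codon in 1 of its 3 frames and the downstream one in 0. The Ccl4 probe lay at chr11:83734455-83734514 on the plus strand. The Ccl5 probes lay on the minus strand at chr11:83595850-83595905 and chr11:83595699-83595758. No exon or UTR annotation of mm7 was used here, so "upstream" and "downstream" give only the order along the strand.

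Cd44 itself followed the labels. It stood at 0.48 ± 0.28 (SD, n = 5) in WT(HFD) liver and at -3.74 ± 0.41 (SD, n = 5) in CD44KO(HFD) liver, and at 4.07 and -0.51 in WAT. Summed hepatocyte markers ran from 1431 to 2114 in liver against 3.76 to 41.0 in WAT, and adipocyte markers from 503 to 1187 in WAT against 9.19 to 100 in liver, in multiples of the array's 75th percentile. The adipocyte marker Lep was well above background on 0 liver arrays, and Adipoq and Plin1 on 1 of each genotype. Within a liver group the arrays had an r of at least 0.981 over all probes. In WAT the lowest r was 0.826, with WT(HFD) replicate 1 apart. On that array 89.5% of spots lay well above background, against 63.2% to 69.2% on the CD44KO(HFD) arrays. Liver and WAT were read on different scanners, so a level in liver cannot be set against one in WAT.

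In liver, Ccl5 was lower in CD44KO(HFD) than in WT(HFD) mice by about 4.3-fold on both of its probes, and Ccl4 was lower by 3.35-fold. The downstream probe of Ccl7 was also called lower, but it was well above background in 4 WT(HFD) mice and in 1 CD44KO(HFD) mouse, so the size of its difference is not well measured. Ccl2 was lower by 4.03-fold on average and just missed the threshold. No ligand rose. Of the 12 probes, 9 passed the filter on dim signals and 4 of these, of 3 genes, were called lower. Among all 24689 probes tested in liver, 5.74% were called lower and 7.82% higher, and the median log2 difference was 0.08. In bulk tissue, fewer cells of a type and less RNA per cell cannot be told apart. P-values measure the spread between the 5 arrays of a group.

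Ccl5 (RANTES) is made mainly by T cells and NK cells and draws T cells and monocytes. Its upstream probe read -0.07, -0.41, 1.17, -0.48 and 0.90 in the 5 WT(HFD) livers and -1.95, -2.30, -1.20, -2.27 and -1.62 in the 5 CD44KO(HFD) livers. The genotypes did not overlap. The difference was -2.09 (SE 0.36, 95% CI -2.88 to -1.30), with an adjusted p of 0.012 by limma and an exact permutation p of 0.0079.

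The downstream Ccl5 probe read 2.15, 1.70, 3.42, 1.73 and 3.03 in WT(HFD) liver and 0.18, -0.14, 1.08, -0.13 and 0.49 in CD44KO(HFD) liver. Again every WT(HFD) mouse lay above every CD44KO(HFD) mouse, a separation in this direction that 4.22% of all tested probes showed. The difference was -2.11 (SE 0.37), with an adjusted p of 0.0127 in limma. Both probes ranked the mice almost identically (r = 0.996 within genotypes), so they count as 1 gene. Ccl5 was also the only ligand called under all 21 alternative settings, with adjusted p between 0.00551 and 0.0365 over both probes in limma. Of these settings 10 left out 1 array, and 1, the series table, held the same values as the main fit and is no separate check.

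Ccl4 (MIP-1β), which recruits macrophages and lymphocytes, read -0.92, -0.78, -0.69, -1.85 and -1.04 in WT(HFD) liver. In CD44KO(HFD) liver it read -3.21, -3.69, -1.20, -3.65 and -2.28. WT(HFD) replicate 4 was lower than CD44KO(HFD) replicate 3, and the other mice were separated. The difference was -1.75 (SE 0.46, adjusted p = 0.0354, limma, and exact permutation p = 0.016). The call ended with normexp background correction (-0.97, adjusted p = 0.128, limma), without a filter on dim probes (adjusted p = 0.0746) and in 8 of the 10 fits that left out 1 array, with adjusted p up to 0.0841. It held without WT(HFD) replicate 4 and without CD44KO(HFD) replicate 3. Normexp was run with an offset of 50 added to each signal, so differences between dim signals shrink under it.

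Ccl3 (MIP-1α), the neighbour of Ccl4, was well above background on 4 WT(HFD) and 2 CD44KO(HFD) livers. It read -3.05, -2.83, -3.21, -4.53 and -3.49 in WT(HFD) and -6.07, -6.43, -3.43, -5.33 and -3.04 in CD44KO(HFD) mice. The values of 1 WT(HFD) and 3 CD44KO(HFD) mice were not well above background, and the groups overlapped. The difference of -1.44 (SE 0.67) had an adjusted p of 0.165 in limma. Normexp, whose offset shrinks differences at such dim signals, brought it to -0.06.

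Ccl2 (MCP-1), the main monocyte attractant and ligand of Ccr2, was printed 10 times on each array, and the SD between its spots was 0.05 to 0.16 on a liver array. It read 1.47, 1.53, 0.73, 0.38 and 0.40 in WT(HFD) liver. The CD44KO(HFD) livers read -1.34, -2.53, 0.94, -2.16 and -0.44, so 4 mice were below all WT(HFD) mice and replicate 3 was above 3 of them. The difference was -2.01 (SE 0.60, 95% CI -3.34 to -0.68, adjusted p = 0.0505, limma, and exact permutation p = 0.032). Leaving out CD44KO(HFD) replicate 3 gave -2.52 (adjusted p = 0.00791, limma). Only this 1 of the 10 fits that left out 1 array passed, and the adjusted p of the others reached 0.116 in limma. With slide as a block the adjusted p was 0.0345, and with no filter on dim probes 0.103. Over all probes, 4641 were called without that mouse and 4270 with slide as a block, against 3349 in the main fit.

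Ccl7 (MCP-3), another Ccr2 ligand, is encoded next to Ccl2, and its probes gave different answers. The downstream probe read -2.71, -2.46, -3.28, -4.33 and -3.46 in WT(HFD) liver, well above background on 4 arrays. In CD44KO(HFD) liver it read -6.18, -6.60, -3.34, -6.48 and -5.60, well above background in replicate 3 alone. The difference was -2.39 (SE 0.61, adjusted p = 0.0314, limma, and exact permutation p = 0.024). It rests on values at background in 4 of 5 CD44KO(HFD) mice. After normexp, whose offset shrinks differences at such dim signals, it was -0.45 (adjusted p = 0.48, limma). It passed in 2 of the 10 fits that left out 1 array, those without WT(HFD) replicate 4 or CD44KO(HFD) replicate 3. In the other 8 the adjusted p reached 0.0787.

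The upstream Ccl7 probe was well above background on all 10 liver arrays. It read -2.66, -1.50, -2.96, -1.94 and -2.87 in WT(HFD) and -2.43, -1.51, -2.52, -1.54 and -3.20 in CD44KO(HFD) mice. The difference was 0.14 (SE 0.38, 95% CI -0.71 to 0.99; adjusted p = 0.829, limma). In WT(HFD) and CD44KO(HFD) mice alike, the 4 arrays of slide 2 were the highest, with a mean of -1.62 against -2.81 on slide 1 and -2.69 on slide 3. Slides held 86.8% of this probe's variance within genotypes, against a median of 35.4% over all tested probes, and 1.83% of probes had a larger share. For the downstream probe the share was 32.6%. The downstream probe was lower in CD44KO(HFD) mice on every slide, with differences of -1.38, -3.15 and -2.90 on slides 1, 2 and 3.

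**Figure D1:**
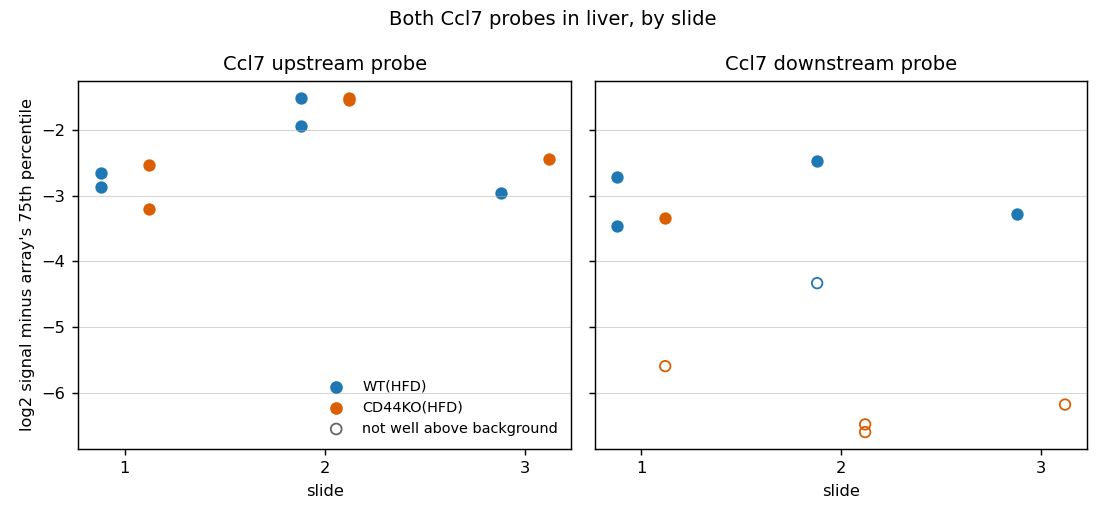
Log2 signal of both Ccl7 probes in liver (y axis, relative to the array's 75th percentile) by slide (x axis), 1 point per mouse, blue for WT(HFD) and orange for CD44KO(HFD), open where the spot was not well above background. The upstream probe is highest on slide 2 in both genotypes, and the downstream probe separates the genotypes except for 1 CD44KO(HFD) mouse at -3.34.

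Ccl6 and Ccl9, Ccr1 ligands made by macrophages and other myeloid cells, changed less. Ccl9 read 2.12 to 2.77 in WT(HFD) and 1.92 to 2.34 in CD44KO(HFD) liver, and all 5 CD44KO(HFD) mice were below the WT(HFD) mean. Its difference was -0.42 (SE 0.14, adjusted p = 0.066, limma). Ccl6 read 0.34 to 2.04 and 0.31 to 1.26, with a difference of -0.62 (SE 0.31, adjusted p = 0.198, limma). Of the 10 fits that left out 1 array, Ccl9 passed only without WT(HFD) replicate 4 (adjusted p = 0.0172, limma). Ccl6 passed only without WT(HFD) replicate 3 (adjusted p = 0.0401, limma).

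The other ligands were at or near background in liver. Ccl8 (MCP-2) was well above background in 2 WT(HFD) mice, at -4.36 and -2.79, and in 0 CD44KO(HFD) mice. The other 3 WT(HFD) values were, like those of the CD44KO(HFD) mice, not well above background, so no fold is given. Ccl11 and Ccl22 were not well above background on any liver array, so no level or difference is given for them.

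**Figure D2:**
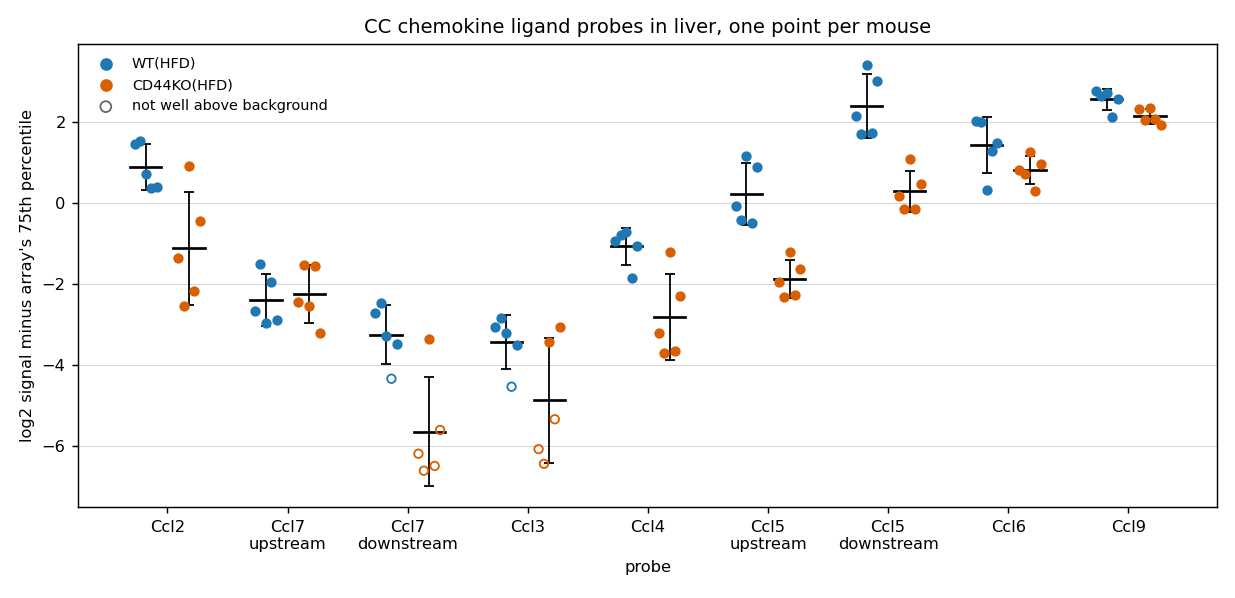
Log2 signal of the 9 tested probes in liver (y axis, relative to the array's 75th percentile) by probe (x axis), 1 point per mouse, blue for WT(HFD) and orange for CD44KO(HFD), open where not well above background, with the mean (bar) and SD (whisker) of 5 mice. Only the Ccl5 probes show no overlap, and CD44KO(HFD) replicate 3 is the highest of its group for Ccl2, Ccl4, Ccl5, Ccl6, Ccl9 and the downstream probe of Ccl7.

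CD44KO(HFD) replicate 3 departed from its group in several ligands together. Its Ccl2 value was 0.94 against a mean of -1.62 ± 0.93 (SD, n = 4) in the other CD44KO(HFD) livers, Ccl4 was -1.20 against -3.21 ± 0.66, and downstream Ccl7 was -3.34 against -6.22 ± 0.45. Leaving it out raised the number of ligand probes called lower in liver from 4 to 5. Over all 24689 probes tested, those called lower rose from 1418 to 1872, so calls rose beyond the ligands too.

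In WAT, no ligand passed the threshold. The largest separation was that of Ccl6, 1.61-fold lower in CD44KO(HFD) mice with no overlap, and the means of Ccl2, Ccl4 and Ccl11 differed by less than 0.1 on the log2 scale. Of the 12 probes, 11 were tested and all 11 lay well above background on all 10 WAT arrays. Among the 27654 probes tested, 0.0289% were called lower and 0.0108% higher by limma, while 14.8% had an unadjusted p under 0.05. Ccl6 was the only member at that unadjusted level.

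Ccl6 (C10), a macrophage product, read 5.80, 5.73, 6.04, 6.09 and 5.78 in WT(HFD) WAT. CD44KO(HFD) WAT read 5.04, 5.22, 5.21, 5.28 and 5.28. The groups did not overlap, which 2.07% of the tested probes did in this direction. The difference was -0.68 (SE 0.13, 95% CI -0.98 to -0.39; adjusted p = 0.145, limma, and exact permutation p = 0.0079). It was -0.69 on slide 4 and -0.64 on slide 5, the slides that held both genotypes, and slide 6 held CD44KO(HFD) mice alone. With median scaling, which shifts all probes, it was -0.20 (adjusted p = 0.814, limma).

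Ccl9, which lies beside Ccl6 in the genome, read 4.47, 4.63, 5.17, 5.07 and 4.03 in WT(HFD) and 4.26, 4.30, 4.10, 4.29 and 4.12 in CD44KO(HFD) WAT. The difference of -0.46 (SE 0.22) had an adjusted p of 0.352 in limma. Array weights, which let the fit give mice unequal influence, brought Ccl6 and Ccl9 past the threshold (adjusted p = 0.00185 and 0.0122, limma), but under that setting 5166 of the 27654 probes were called, so 2 of 11 ligand probes is near the background.

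Ccl5 in WAT was set apart by a single mouse. The upstream probe read 0.33, 1.41, -0.03, 0.74 and 3.55 in WT(HFD) mice and -0.20, -0.68, 0.38, 0.39 and 0.34 in CD44KO(HFD) mice. The difference was -1.15 (SE 0.61, adjusted p = 0.395, limma), and without WT(HFD) replicate 5 it was -0.56. The downstream probe behaved the same way, with 4.94 in that mouse and 1.64 to 2.83 in the other WT(HFD) mice.

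Ccl8 read 1.81, 2.11, 1.82, 2.23 and 5.28 in WT(HFD) WAT and 2.01, 1.39, 2.30, 1.98 and 1.67 in CD44KO(HFD) WAT. The high value was again that of WT(HFD) replicate 5, and without it the difference of -0.78 (SE 0.61, adjusted p = 0.547, limma) shrank to -0.12. In the same mouse the 7 T cell markers summed to 6.80 and the 4 B cell markers to 7.19, against medians of 1.52 and 1.59 over the 5 WT(HFD) mice, and its NK sum of 1.32 was second to the 2.19 of replicate 1. The part of these cells in the Ccl5 and Ccl8 values was not tested.

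The Ccl7 probes moved together in WAT (r = 0.83 within genotypes), unlike in liver. The downstream probe read 0.59, 1.07, 1.52, 1.14 and 1.75 in WT(HFD) and 2.64, 2.27, 1.71, 1.49 and 1.26 in CD44KO(HFD) mice, a difference of 0.66 (SE 0.31, adjusted p = 0.352, limma). The upstream probe gave 0.45 (SE 0.28, adjusted p = 0.463, limma). Both were highest in CD44KO(HFD) replicates 1 and 2, which were also the highest of their group for Ccl2, at 5.30 and 4.28.

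The remaining ligands showed small differences in WAT with intervals on both sides of 0. Ccl2 differed by 0.09 (95% CI -0.74 to 0.92), Ccl3 by -0.18 (95% CI -0.83 to 0.47), Ccl4 by 0.02 (95% CI -0.50 to 0.53) and Ccl11 by 0.06 (95% CI -0.30 to 0.42). A change of 4-fold is outside each of these intervals. Median scaling in place of the 75th percentile raised the median difference of all probes in WAT from -0.06 to 0.42. It moved Ccl3 to 0.30 and Ccl9 to 0.02, both still below that median. Ccl22 was well above background on 2 WAT arrays, at -3.06 in WT(HFD) replicate 1 and -3.76 in CD44KO(HFD) replicate 2, and was not tested.

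**Figure D3:**
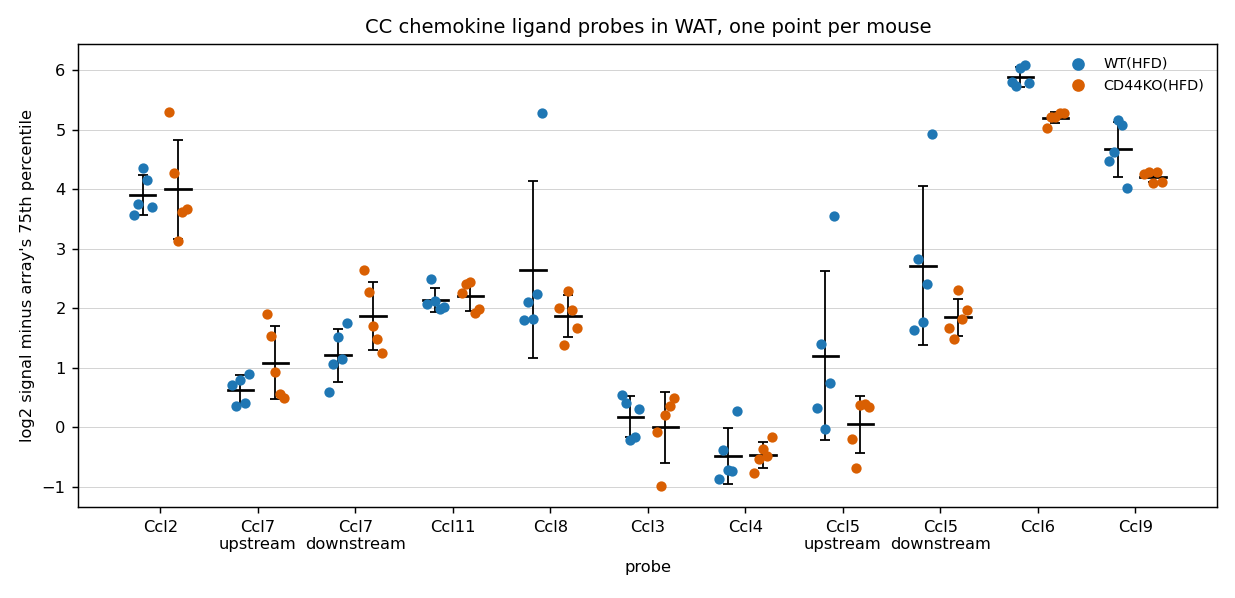
Log2 signal of the 11 tested probes in WAT (y axis, relative to the array's 75th percentile) by probe (x axis), 1 point per mouse, blue for WT(HFD) and orange for CD44KO(HFD), with the mean (bar) and SD (whisker) of 5 mice. Ccl6 alone shows no overlap, and WT(HFD) replicate 5 stands high for both Ccl5 probes and for Ccl8.

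Whether the genotype acted differently in the 2 tissues was tested by the interaction term over all 20 arrays, which called 1.15% of 28989 probes, 24.3% of its 333 calls with the lower effect in WAT. With median scaling there were 19 calls, 36.8% of them lower. The downstream Ccl7 probe was the only ligand probe called. Its difference was -2.39 in liver and 0.66 in WAT, so that the effect in WAT exceeded that in liver by 3.05 (SE 0.72, adjusted p = 0.0466, limma). The liver term rests on values not well above background in 4 of 5 CD44KO(HFD) mice. The upstream Ccl7 probe gave 0.31 (SE 0.50, adjusted p = 0.781, limma). Quantile normalization (adjusted p = 0.0677, limma) and median scaling (adjusted p = 0.111, limma) ended the call. Normexp, whose offset shrinks differences between dim signals, brought the difference to 1.16. The call held in 4 of 20 fits that left out 1 array. Those were without WT(HFD) liver replicate 4, CD44KO(HFD) liver replicate 3, WT(HFD) WAT replicate 5 or CD44KO(HFD) WAT replicate 4, and the highest adjusted p of the others was 0.0962 in limma.

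For Ccl2 the effect in WAT exceeded that in liver by 2.10 (SE 0.75, adjusted p = 0.171, limma), and for Ccl4 by 1.76 (SE 0.54, adjusted p = 0.113, limma). Without CD44KO(HFD) liver replicate 3 both passed, at adjusted p of 0.0337 and 0.0113 in limma. Each passed in only this 1 of the 20 fits that left out 1 array. In the others the adjusted p reached 0.292 for Ccl2 and 0.207 for Ccl4 in limma. Over all 28989 probes, the fit without that mouse called 577, against 333 in the main fit. Ccl5 differed between tissues by 0.94 and 1.24 on its probes, with adjusted p of 0.556 and 0.404 in limma, so a call in liver and none in WAT did not amount to a tested difference. For Ccl6 and Ccl9 the effects differed between tissues by -0.06 (95% CI -0.80 to 0.67) and -0.04 (95% CI -0.58 to 0.50). These intervals are too wide to call the effects equal, and median scaling gave 0.40 and 0.43.

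**Figure D4:**
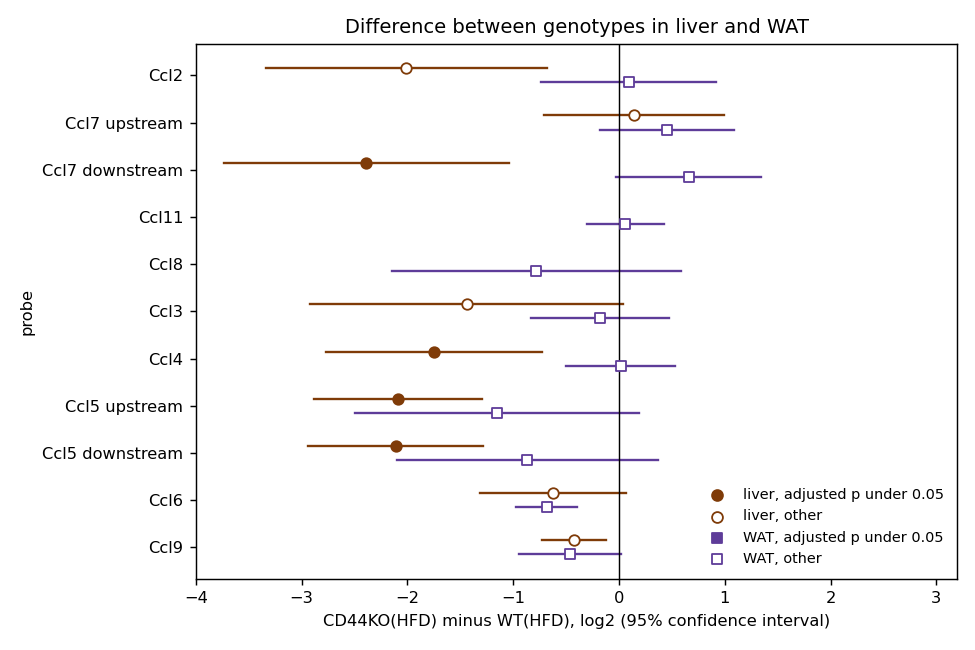
Difference CD44KO(HFD) minus WT(HFD) on the log2 scale (x axis) with its 95% confidence interval from limma, by probe (y axis), for liver (brown circles) and WAT (purple squares), filled where the adjusted p was under 0.05. In liver both Ccl5 probes, Ccl4 and downstream Ccl7 are filled and lie between -2.39 and -1.75, and in WAT none is filled.

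Which ligands followed each other was asked across the 10 mice of a tissue after the mean of each genotype had been removed, with exact permutation of the mice within genotypes. In liver, 7 ligands, each read by its brightest probe, gave 21 pairs. Ccl2 and Ccl4 rose and fell together with r = 0.93 and rho = 0.95 (adjusted p = 0.0365 for r, exact permutation), the only pair past the threshold by r. Without the 2 mice farthest from the median of Ccl2, r was 0.79, and leaving out CD44KO(HFD) replicate 3 gave 0.82 (adjusted p = 0.0984, exact permutation). With slide effects removed as well, r was 0.89. Of these alternatives and normexp, 4 in all, 2 passed, and the adjusted p reached 0.331 by exact permutation.

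Ccl3 had an r of 0.82 with Ccl2 and 0.86 with Ccl4, and neither passed (adjusted p = 0.0972 and 0.0967, exact permutation). Its low values were those of the 1 WT(HFD) and 3 CD44KO(HFD) mice not well above background. Normexp raised both past the threshold, at 0.89 and 0.98. Ccl5 had an r of 0.38 with Ccl2 (adjusted p = 0.353, exact permutation), which was -0.07 without the 2 farthest mice. With Ccl4 its r was 0.66 (adjusted p = 0.0967, exact permutation), an adjusted p equal to that of Ccl3 with Ccl4.

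The downstream Ccl7 probe was read after its values were known, since the brightest Ccl7 probe over all arrays was the upstream one. It followed Ccl2 with r = 0.93 and Ccl4 with r = 0.94, with adjusted p of 0.00104 and 0.0059 over the 15 added pairs by exact permutation. In 1 WT(HFD) and 4 CD44KO(HFD) mice this probe was not well above background, so the low end of both relations consists of such values. The upstream probe had an r of -0.42 with Ccl2 and -0.77 with Ccl5. The latter pair passed by rank (rho = -0.87, adjusted p = 0.0306, exact permutation) but not by r (adjusted p = 0.0972), and r was -0.21 once slide effects were removed. The Ccl7 probes themselves had an r of -0.29 in liver, and 0.50 with slide effects removed.

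In WAT, 9 ligands gave 36 pairs and 0 passed the threshold, with 3 at an unadjusted p under 0.05. The strongest were Ccl5 with Ccl8, at r = 0.95, and Ccl4 with Ccl5, at r = 0.92, each with an adjusted p of 0.0775 by exact permutation. Without WT(HFD) replicate 5 these were 0.69 and 0.70, so that mouse carried much of both values. Ccl2 and Ccl4, which moved together in liver, had an r of -0.44 in WAT (adjusted p = 0.35, exact permutation), and the difference between the tissues was not tested.

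**Figure D5:**
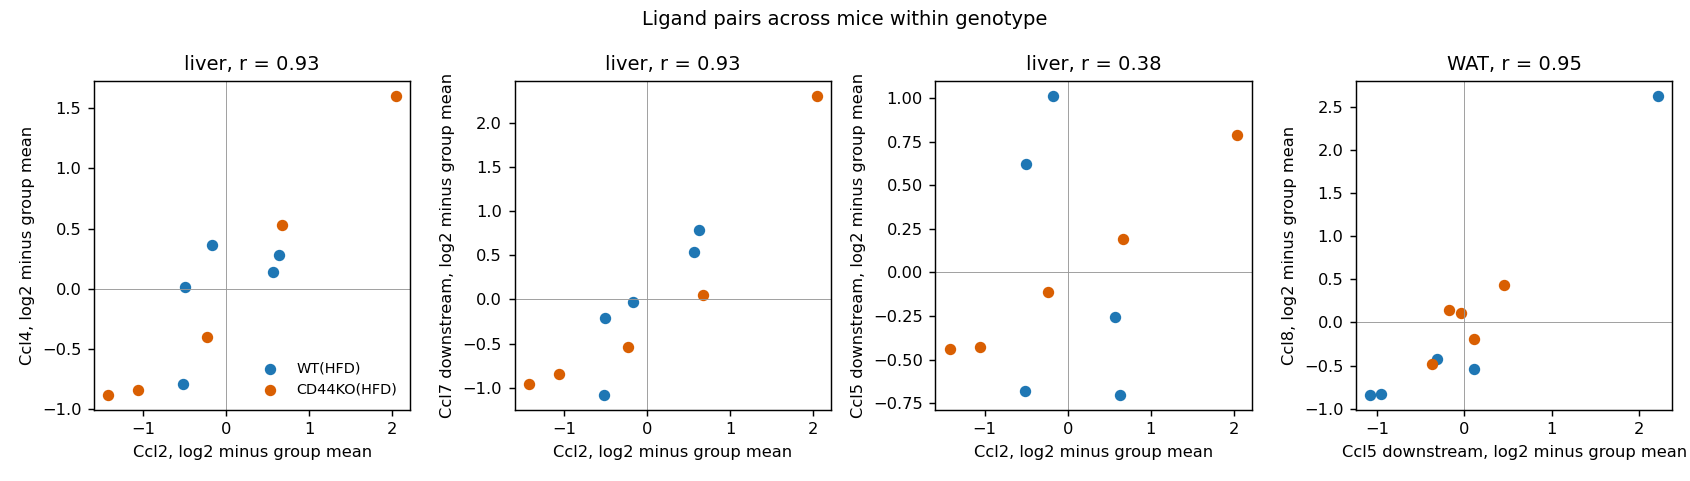
Log2 signal of pairs of ligands minus the mean of each genotype (both axes), 1 point per mouse, blue for WT(HFD) and orange for CD44KO(HFD). In liver Ccl4 and downstream Ccl7 follow Ccl2 (r = 0.93 for each) the downstream Ccl7 values at the low end not being well above background, and Ccl5 does so less (r = 0.38), and in WAT the r of 0.95 between Ccl5 and Ccl8 leans on 1 WT(HFD) mouse.

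The genes whose pattern was most like that of each ligand were taken from 20115 symbols over the 20 arrays, with the mean of each group removed, as a description with no test. For Ccl5 they were Nkg7 (r = 0.92), a granule protein of cytotoxic lymphocytes, Tcrb-V13 (0.89) and Lck (0.88), a kinase of T cells. Nkg7 kept an r of 0.85 without WT(HFD) WAT replicates 1 and 5, while Lck fell to 0.71. For Ccl4 they were Tnfsf13b (0.90), Tlr2 (0.86) and Kbtbd11 (0.85), and for Ccl2 they were Nupr1 (0.93), Fxyd5 (0.92) and Phlda3 (0.90). Ccl6 was closest to Tnfrsf11a (0.89), Tbxas1 (0.89) and St6galnac4 (0.87), Ccl3 to Vcpkmt (0.90), Tmem71 (0.85) and Ms4a7 (0.84), and Ccl8 to Fcrla (0.86), Itpka (0.83) and Il18bp (0.83). Ccl9 was closest to Colgalt1 (0.85) and Arsi (0.81), Ccl11 to Sh3rf3 (0.74), Ube1l2 (0.74) and Tnfaip6 (0.72), and the upstream Ccl7 probe to Spatc1l (0.86), Il17rd (0.86) and Olfr1495 (0.84). For Itpka and Il18bp the r with Ccl8 was 0.54 and 0.55 without those mice. Ccl11 was well above background on 0 liver arrays and Ccl8 on 2, so most of their liver values in these r are background. For the upstream Ccl7 probe, slides held 86.8% of the variance within genotypes in liver, and the part of the slides in its r was not tested. The 20 arrays cover both tissues, which were read on different scanners, and these values include mice that stand apart.

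Among the CC receptors, Ccr2, the receptor of Ccl2 and Ccl7, was lower in CD44KO(HFD) liver, with a difference of -1.81 (SE 0.45, adjusted p = 0.0298, limma). Its signal exceeded background clearly in 5 WT(HFD) and 3 CD44KO(HFD) mice. Ccr3, the eotaxin receptor, differed by -0.54 (adjusted p = 0.199, limma), and the scavenging receptors Ackr1 and Ackr2 by -0.20 and -0.24. Ccr1, Ccr4 and Ccr8 were not well above background on any liver array. In WAT the difference for Ccr2 was -0.15, and it did not pass.

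Of the other CC ligands on the list, 5 were tested in liver and 1 was called lower, Ccl19, which guides Ccr7-bearing T cells and dendritic cells, at -1.22 (SE 0.18, adjusted p = 0.00923, limma). Ccl24, Ccl25, Ccl27a and Ccl28 had positive differences of 0.11 to 0.98 that did not pass. Among genes that induce these ligands or act in NF-κB signalling, Nfkb2 was lower in liver, at -0.64 (adjusted p = 0.0331, limma). Tnf, Ifng and Relb had differences of -0.60, -0.83 and -0.82 that did not pass, and Il1b one of 0.79. Over all 17 genes of that list the median was -0.20, and 12 differences were negative. Among 7 tested genes that carry the signal of chemokine receptors, Gnai2, the inhibitory G protein subunit, was lower, with a difference of -0.34 (adjusted p = 0.0276, limma). In WAT none of the genes named here was called.

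Some T cell and NK markers were called lower in CD44KO(HFD) liver. Over all probes tested there, 5.74% were called lower and 7.82% higher. Of 7 T cell markers 4 were lower, Cd3d at -1.04, Lck at -0.90, Cd3g at -0.84 and Cd8a, which was well above background in 5 WT(HFD) and 0 CD44KO(HFD) mice. Cd3e and Cd4 differed by 0.12 and 0.20 and did not pass. Of 4 tested NK markers 3, all of cytotoxic granules, were lower. These were Gzmb at -1.88, and Gzma and Prf1, each well above background in 1 CD44KO(HFD) mouse. The lineage marker Klrb1c differed by -0.19, and Ncr1 was not well above background on any liver array. The summed NK markers did not overlap between genotypes, at 0.289 to 0.529 in WT(HFD) and 0.125 to 0.181 in CD44KO(HFD) liver. Of single tested probes, 4.22% were separated in this direction, but no such share was computed for sums, and the NK sum includes Ncr1. The T cell sums, at 1.64 to 2.87 in WT(HFD) and 1.34 to 1.90 in CD44KO(HFD) liver, overlapped. None of 7 tested macrophage markers was called (median -0.15). The same held for the tested markers of B cells (4, median 0.07), neutrophils (2, median -0.99) and eosinophils (1, at -0.54). Of 5 Kupffer cell markers, 2 were called higher, Timd4 by 2.99 and Marco by 2.95. Of 4 tested dendritic cell markers, Itgax was lower at -2.01, while Flt3, Zbtb46 and Xcr1 differed by 0.26, 0.50 and 0.02 and did not pass. Lower too were 4 of 6 fibroblast and stellate cell markers, Col1a1 at -2.38 among them. In WAT, 0 members of each marker list passed, although summed mast cell markers ran from 18.2 to 44.4 in WT(HFD) and from 1.31 to 10.6 in CD44KO(HFD) mice. The part of these cells in the ligand differences was not tested.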

How the data were processed

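RNA from 2 tissues, liver and WAT, of both genotypes was read with 1 dye on 20 Agilent arrays. The authors deposited scanner files and a table of the series holding the processed signal, a linear fluorescence intensity (identical in both). Feature Extraction 9.5.3.1 had subtracted a fitted spatial surface, divided by a multiplicative trend and replaced the dimmest signals by surrogates. No scaling between arrays had been applied. Spots flagged as outliers were left out, log2 intensities were centred on each array's 75th percentile and spots of a probe were averaged. Limma 3.58.1 in R 4.3.3 (with statmod 1.5.0) compared genotypes within a tissue and tested the tissue by genotype interaction. The method was tested on simulated data. The number of arrays limits the precision. Every member probe was reported, values by mouse where tested, the 3 most alike symbols per member, and list genes that passed plus the receptors. Some genes that this rule names are not reported here. The members and lists were chosen with earlier results of these data known. Alternatives were normexp with an offset of 50, quantile and median scaling, other filters, outlier spots kept, and slide or replicate blocks. A joint fit, array weights, series table values and leaving out each array were also used. The replicate numbers were not taken as pairs. Same-numbered liver and WAT samples had r between -0.21 and 0.14 in WT(HFD) and between -0.04 and 0.15 in CD44KO(HFD) mice. Such r cannot show whether the tissues came from the same mice.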

Additional observations from a re-analysis of the deposited data

Results flagged for a closer look

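Among the 40 groups of 5 arrays of tested ligand probes, 2 held a mouse far from the others, about as many as chance gives (1 in 20). Ccl8 read 5.28 in WT(HFD) WAT replicate 5, with the nearest mouse of its group at 2.23. Ccl11 read 2.49 in WT(HFD) WAT replicate 2, with the nearest at 2.12.

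The genotype effect on the downstream Ccl7 probe differed between tissues, by 3.05 on the log2 scale (adjusted p = 0.0466, limma interaction term). In liver this probe was well above background in 4 WT(HFD) mice and 1 CD44KO(HFD) mouse. The upstream probe of the same gene gave 0.31.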

How the results depend on the processing

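Both Ccl5 probes were called lower in liver under all 21 alternatives, 1 of which, the series table, repeats the same values. The count of 4 ligand probes called in liver was 2, both of Ccl5, with normexp and with no filter on dim probes, 6 with array weights (Ccl2 and Ccl9 added), 5 with slide as a block (Ccl2 added), and 2 to 5 when 1 array was left out. The count in WAT, 0, was 2 with array weights (Ccl6 and Ccl9) and 0 in every fit without 1 array. For the interaction, the single call became 0 with normexp, quantile normalization, median scaling, no filter and the replicate block, 2 with array weights, and 0 to 3 without 1 array. Correlated pairs in liver, 1 in the report, were 3 with normexp, 2 with slide removed, 1 without the 2 farthest mice and 0 without CD44KO(HFD) replicate 3. In WAT, 0 pairs became 2 with normexp, 1 with slide removed and 0 to 1 without WT(HFD) replicate 1 or 5. Array weights were estimated from few arrays and in 1 of these fits limma stopped before the weights converged. They raised the calls over all probes to 4799 of 24689 in liver, 5166 of 27654 in WAT and 3248 of 28989 for the interaction.

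Some small differences changed sign. In WAT, Ccl2 was -0.093 with quantile normalization, -0.29 with array weights, -0.28 with slide as a block, -0.090 without WT(HFD) replicates 1 and 5, and -0.23 to 0.31 without 1 array. Ccl11 was -0.10, -0.23 and -1e-04 under quantile normalization, array weights and without those mice. Ccl3 was 0.30 with median scaling, 0.35 with array weights and -0.30 to 0.069 without 1 array, Ccl9 was 0.018 with median scaling, and Ccl4 ran from -0.082 to 0.21 without 1 array. Upstream Ccl7 in liver ran from -0.038 to 0.38 without 1 array. For the difference between tissues, normexp gave -0.046 for Ccl3 and 0.077 for Ccl9, and -0.19 for Ccl11 and -0.90 for Ccl8. In liver Ccl11 was well above background on 0 arrays and Ccl8 on 2. The liver part of their differences is therefore not measured, and their signs carry no meaning here. Ccl11 was -0.029 with quantile normalization and -0.29 with array weights, Ccl9 was 0.43 with median scaling, and Ccl6 was 0.40 with median scaling and 0.094 with array weights. Without 1 array Ccl9 ran from -0.20 to 0.083, Ccl6 from -0.22 to 0.21 and Ccl8 from -0.16 to 0.92. The cause of these shifts was not tested.

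Over all probes, 3349 were called in liver, against 641 with normexp, 1028 with no filter, 708 in a fit of all 20 arrays and 1317 with the replicate block. With the replicate block, downstream Ccl7 had adjusted p of 0.0575 in liver and 0.153 for the interaction in limma, and the ligand count in liver was 3. Same-numbered samples did not deviate together, so the numbers were not taken as pairs. Probes not well above background limit Ccl3, Ccl7 downstream, Ccl8, Ccl11 and Ccl22 in liver. The alternatives without named mice and the second probes of Ccl5 and Ccl7 were chosen after seeing the data.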

Other observations

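Ccl22, a dendritic cell and macrophage product, was well above background in 0 of 10 livers and in 2 of 10 WAT samples, and the signals of those arrays were -3.06 in WT(HFD) replicate 1 and -3.76 in CD44KO(HFD) replicate 2. In the other 8 WAT samples it lay between -8.83 and -7.41. The first of these arrays was also the one with 89.5% of spots well above background.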
